A study of Mus musculus with 12 samples.

Results

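The subunits of the receptors for glutamate, GABA and glycine were examined in brain and stomach tissue of mice with a PPRE transgene. Genes were chosen by symbol alone: every gene in the probe annotation whose symbol starts as those of the AMPA (Gria), delta (Grid), kainate (Grik), NMDA (Grin), metabotropic glutamate (Grm), GABA-A (Gabr), GABA-B (Gabbr) and glycine (Glra, Glrb) receptors was taken, which gave 45 of 16675 named genes and 55 of 29922 probes. Each gene was read from 1 probe, that of the highest mean log2 intensity over the 12 arrays. The other probes of a gene served as a check: 38 genes had 1 probe, 4 had 2 and 3 had 3. The symbol Grid2ip, which the rule also takes, belongs to delphilin, a scaffold protein that binds a delta glutamate receptor and is not itself a receptor.

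Glutamate is the main excitatory transmitter of the brain. AMPA, kainate and NMDA receptors are cation channels, built of several subunits, that open on binding glutamate, and metabotropic glutamate receptors act through G proteins. GABA and glycine inhibit neurons, GABA through the chloride channels of the GABA-A class and the G protein-coupled GABA-B receptor, glycine through chloride channels most used in the spinal cord and brain stem.

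The mice were male FVB animals of 6 to 8 weeks, heterozygous for a luciferase transgene driven by peroxisome proliferator-activated receptor (PPAR) response elements and a thymidine kinase promoter, and all groups carried it. The founder line is not stated. The 4 groups were chitosan brain, mock brain, chitosan stomach and mock stomach, each of 3 arrays from independent mice: chitosan mice received 0.2 g/kg chitosan oligosaccharide lactate under the skin, mock mice received saline, and tissue was collected on day 3. No source states if 1 mouse gave both organs, and p values measure the spread between these arrays.

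Intensities are Cy5 signals on a linear scale. The lowest value of an array lay between 34.3 and 35.3, the median between 47 and 47.8, and 9.52% to 10.6% of the probes exceeded 2 times the array's lowest value (68.7 to 70.5), which is called the background limit here. Neuronal markers checked the labels: for 17 of 18 listed genes that were measured, the summed intensity was 10804 to 20019 in chitosan brain, 8740 to 11572 in mock brain, 989 to 1726 in chitosan stomach and 979 to 1394 in mock stomach. Markers of gastric epithelium (14 of 15 measured) summed to 2092 to 4110 in chitosan stomach and 13031 to 19590 in mock stomach, and those of smooth muscle (10 of 10 measured) to 14898 to 17413 in chitosan stomach and 8180 to 9968 in mock stomach. No marker of either list was called between chitosan and mock stomach. At an unadjusted p under 0.05 by limma, 10 epithelial markers were lower and 3 muscle markers higher, against 3.91% and 2.1% of named genes. Their part in the stomach comparisons was not tested. In whole organs, fewer cells of a type and less RNA per cell cannot be told apart.

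Most receptor genes lay near the floor of the array, as did most probes of every array. Of the 45 genes, 32 (71.1%) did not exceed the background limit on any of the 12 arrays, 13 exceeded it on at least 1, and Gria1 exceeded it on every brain array. No receptor gene exceeded it on every stomach array. Between 3 and 7 receptor genes (6.67% to 15.6%) were above the limit on a brain array, against 9.615% to 10.6% of all probes. On a stomach array 0 to 2 were (0% to 4.44%), against 9.52% to 10.6% of all probes. The receptor shares count the brightest probe of each gene. The counts over all 12 arrays were not made for all named genes. The range of most receptor genes was also coarse: the number of distinct intensities from 40 to 100 was 76, 164 and 37 on the chitosan brain arrays, 25, 18 and 32 on the mock brain arrays, 74, 37 and 15 on the chitosan stomach arrays and 58, 130 and 53 on the mock stomach arrays. Chitosan stomach array 3 had the fewest steps, and its 66.3 was shared by 1027 probes, among them the probes of Gria1, Gabra5, Glra3 and Grid1. For genes in this range a log2 difference can be compressed toward 0, and a single step can be as large as the difference between groups.

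**Figure D1:**
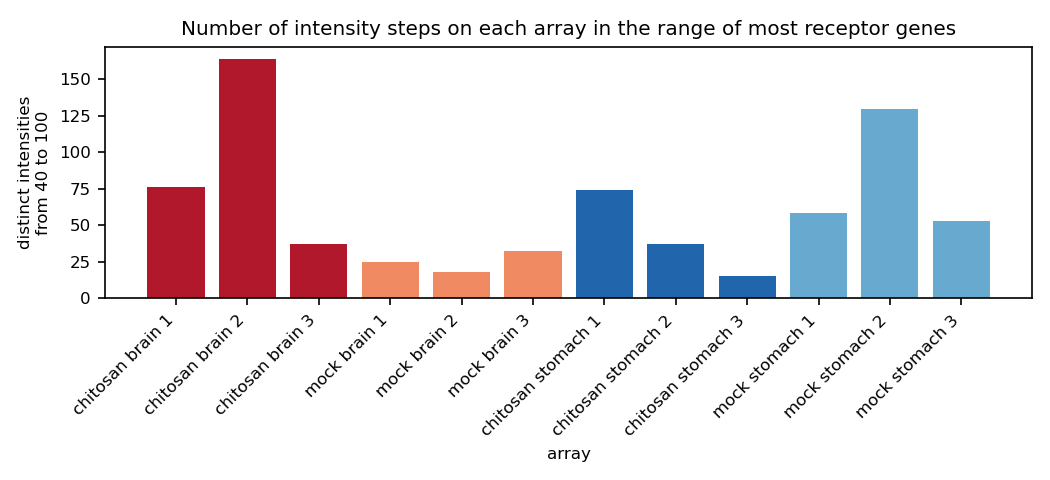
Number of distinct intensity values from 40 to 100 (y axis) on each of the 12 arrays (x axis), colored by group. Chitosan brain array 2 had 164 steps and chitosan stomach array 3 had 15, so that neighboring dim values on chitosan stomach array 3 lie far apart.

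Promoter sequence is shown for 4 receptor genes with higher intensities in brain than in stomach at an unadjusted p under 0.05 in at least 1 treatment. RefSeq windows of the mouse build GRCm38.p6, which run from 250 bases before to 50 bases after a start site, were matched by symbol for 35 of the 45 genes (43 windows). The genes without a window include Gria1 and Gria3. Each is written 5′ to 3′ on the strand of the gene. Capitals mark the GC box (GGGCGG, the core of the sites bound by the Sp factors) and the left and right ends of the RE1 site (TTCAGCACC and GGACAGC; the element bound by the neuronal gene repressor REST), searched on both strands.

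Gria2, chr3:80802786-80803085, minus strand: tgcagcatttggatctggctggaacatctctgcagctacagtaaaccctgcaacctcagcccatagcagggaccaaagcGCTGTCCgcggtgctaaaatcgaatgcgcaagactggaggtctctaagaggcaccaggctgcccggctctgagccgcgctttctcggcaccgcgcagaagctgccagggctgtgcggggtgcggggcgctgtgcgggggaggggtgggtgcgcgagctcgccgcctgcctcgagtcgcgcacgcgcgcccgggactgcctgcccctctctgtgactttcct
Grik5, chr7:25072320-25072619, minus strand: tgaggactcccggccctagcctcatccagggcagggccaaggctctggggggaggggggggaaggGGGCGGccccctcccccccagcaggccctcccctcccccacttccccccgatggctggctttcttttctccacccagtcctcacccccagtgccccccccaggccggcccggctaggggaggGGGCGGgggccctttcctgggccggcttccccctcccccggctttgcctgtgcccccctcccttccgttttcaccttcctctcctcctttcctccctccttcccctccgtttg
Gabra5, chr7:57510010-57510309, minus strand: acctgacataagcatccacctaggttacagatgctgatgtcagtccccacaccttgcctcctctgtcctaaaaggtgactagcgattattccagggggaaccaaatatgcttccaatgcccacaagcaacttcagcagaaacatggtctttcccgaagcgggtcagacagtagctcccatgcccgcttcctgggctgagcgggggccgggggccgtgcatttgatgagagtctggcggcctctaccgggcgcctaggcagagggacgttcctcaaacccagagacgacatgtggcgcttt
Gabbr1, chr17:37045716-37046015, plus strand: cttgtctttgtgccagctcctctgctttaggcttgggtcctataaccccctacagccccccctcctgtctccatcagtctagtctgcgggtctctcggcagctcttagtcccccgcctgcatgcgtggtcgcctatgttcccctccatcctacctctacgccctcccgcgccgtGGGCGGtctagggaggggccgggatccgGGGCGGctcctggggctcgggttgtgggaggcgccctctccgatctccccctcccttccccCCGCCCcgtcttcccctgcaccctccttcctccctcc

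The GC box letters occurred in 23 of the 43 receptor windows (53.5%), against 35.7% of all 32851 windows, and the median GC content was 59.7% in the receptor windows and 52.7% in all windows. The right end of RE1 was found in 4 receptor windows (9.3%), those of Gria2, Grm2, Glra2 and Glrb, against 6.56% of all windows. The left end was found in the window of Grm2 (2.33% of receptor windows, 0.371% of all). Gria2 carries the right end on the opposite strand (GCTGTCC) and no GC box, Gabbr1 carries 3 GC boxes, Grik5 carries 2, and Gabra5 carries neither motif. Only exact letters were counted. The nearby letters ggtgctaaa of Gria2 differ from the left end, read on that same strand, in a single base. The TATA box (TATAAA) occurred in 11.6% of receptor windows and 13.6% of all windows, the E box (CAGCTG) in 4.65% and 16.3%, and the cAMP response element (TGACGTCA) in 0 of 43 and 1.79%. The GC box and the RE1 ends share no letters in these windows, and a match is a description of the letters, not of a bound site.

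Brain and stomach were compared first, within each treatment, to see which receptor genes could be measured at all. In mock mice, Gria1 and Gria3 were higher in brain than in stomach by limma at an adjusted p under 0.05 and no receptor gene was lower. These 2 of 45 genes stand against 4.06% of all named genes called higher in brain and 5.05% called lower. In chitosan mice Gria1 and Gabbr1 were called, against 2.09% of named genes called higher and 1.43% called lower. At an unadjusted p under 0.05, and with the called genes included, 12 receptor genes were higher in mock brain and 0 lower (10.3% and 11.3% of named genes), and 10 were higher in chitosan brain and 0 lower (7.85% and 6.18%). Groups did not overlap for 17 genes that were above stomach in mock mice and 0 below (15% and 13.8% of named genes), and for 7 above and 1 below, Grin1, in chitosan mice (9.91% and 9.04%). The median log2 difference was 0.10 over the receptor genes in mock mice, against 0.02 over all named genes, and 0.02 against -0.01 in chitosan mice. Brain was higher than stomach for 40 of 45 receptor genes in mock mice, against 56.3% of named genes, and for 27 of 45 in chitosan mice, against 47.3%.

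In both treatments, 9 genes had an unadjusted p under 0.05 toward brain. They were 20% of the receptor genes, against 4.18% of all named genes, and the brain arrays lay above the stomach arrays in both treatments for 6 receptor genes (13.3%, against 4.54%).

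**Figure D2:**
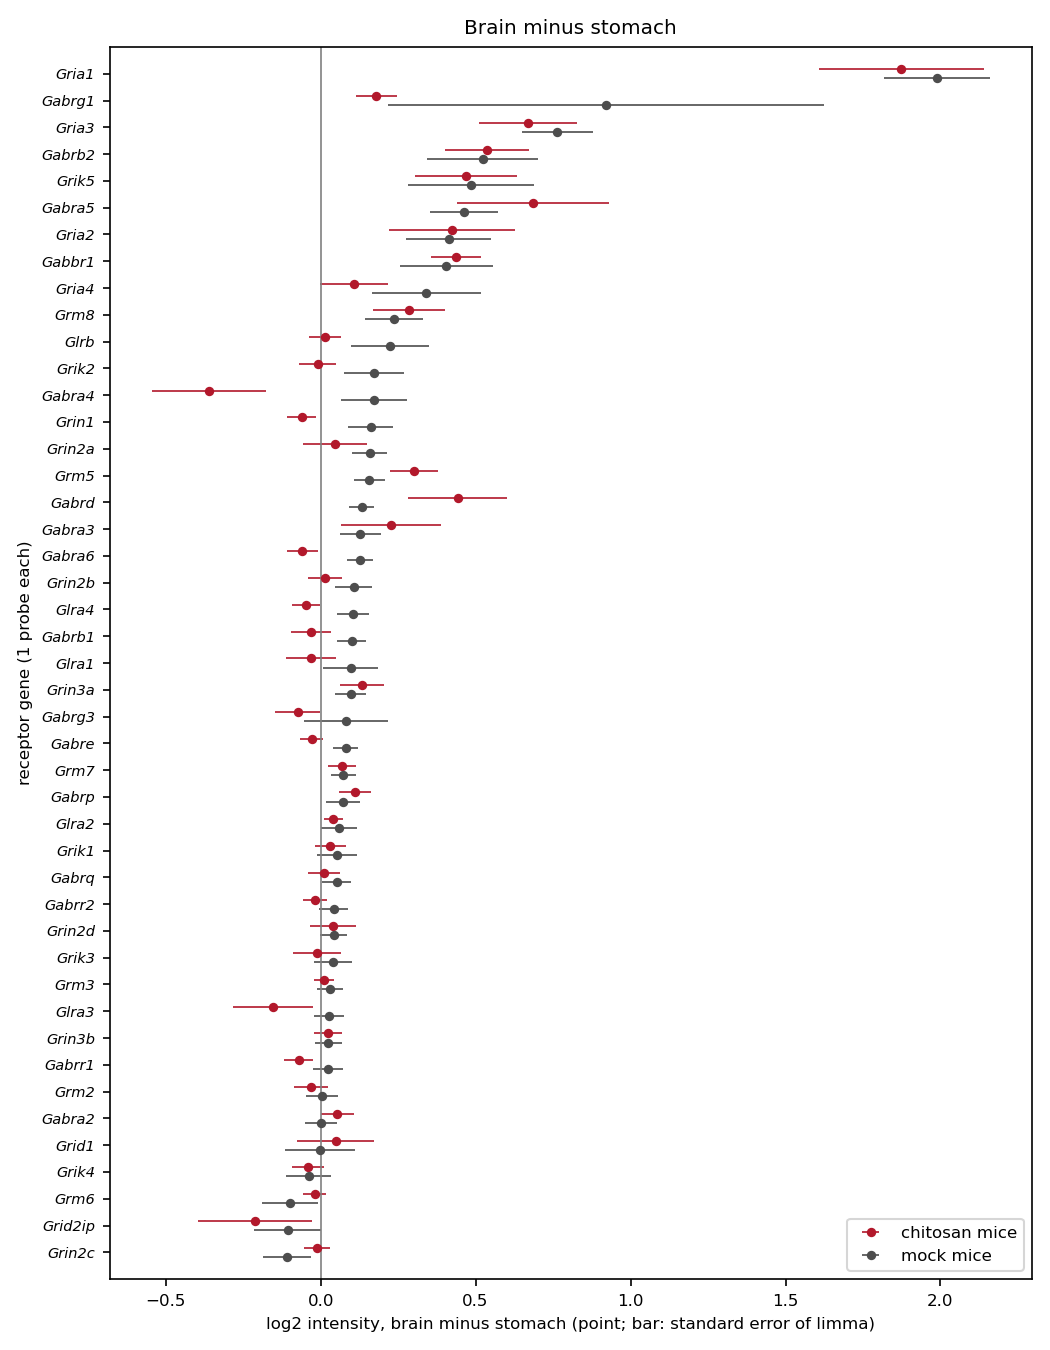
Log2 difference of brain minus stomach (x axis) for the 45 receptor genes (y axis), in chitosan mice (red) and mock mice (gray), ordered by the value in mock mice. Points are limma estimates from 3 against 3 arrays and bars are standard errors. Gria1 lies near 2 in both treatments, Gria3 between 0.67 and 0.76, and the wide bar of Gabrg1 comes from 1 mock brain array.

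The AMPA receptors, which carry most fast excitatory transmission, included Gria1, the gene with the largest difference in both treatments. Gria1 (probe mMC021319) codes for the GluA1 subunit, whose delivery to synapses accompanies long-term potentiation. Its intensities were 246, 200 and 201 in chitosan brain, against 56.7, 53.7 and 66.3 in chitosan stomach. In mock mice they were 200, 236 and 229 in brain, against 59.1, 50.8 and 57.5 in stomach. Every brain array was above every stomach array by a wide margin, and the brain values of the 2 treatments overlapped. The log2 difference was 1.87 (SE 0.27, adjusted p = 0.0145) in chitosan mice and 1.99 (SE 0.17, adjusted p = 5.3e-04) in mock mice. This probe was not above the background limit on any stomach array, so bounds are given for it. They do not hold for the gene, whose other probes differed less (given below). The level at this probe was at least 3.1-fold higher in chitosan brain than in chitosan stomach. In mock mice it was at least 3.21-fold higher in brain than in stomach. The call held in 17 of 17 settings in mock mice and 14 of 17 in chitosan mice, the reported one included. It was lost in chitosan mice without chitosan brain array 1 (adjusted p = 0.0836), without chitosan stomach array 1 (adjusted p = 0.123) or without chitosan stomach array 2 (adjusted p = 0.212).

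Gria3 (probe mMC013048), the GluA3 subunit of the same receptors, had 76.6, 67 and 101 in chitosan brain, against 52.2, 49.3 and 50.3 in chitosan stomach. In mock mice it had 86.8, 97.8 and 79 in brain and 55.3, 47.3 and 52.3 in stomach. No brain array overlapped the stomach arrays in either treatment. At this probe the difference was 0.76 on the log2 scale in mock mice (SE 0.11, adjusted p = 0.0063, at least 1.27-fold for this probe). It was 0.67 in chitosan mice (SE 0.16), where it did not pass (adjusted p = 0.109). The mock call was lost by the methods' t-test (adjusted p = 0.0547), and the chitosan difference passed with all 12 arrays in 1 model (adjusted p = 0.0199).

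Gria2 codes for GluA2, the subunit that makes AMPA receptors impermeable to calcium. Its intensities were 55.3, 97.9 and 60.7 in chitosan brain and 50.8, 50.8 and 52.8 in chitosan stomach. They were 74.2, 53.3 and 74.9 in mock brain and 50.6, 47.3 and 52.3 in mock stomach. The brain arrays were higher without overlap in both treatments, yet spread widely among themselves, and neither difference passed (0.42, SE 0.20, adjusted p = 0.529 in chitosan mice; 0.41, SE 0.14, adjusted p = 0.167 in mock mice). Gria4, the GluA4 subunit, had 48.6, 56.3 and 56.5 in chitosan brain, 48.6, 82.5 and 57.2 in mock brain, 45.6, 47 and 57.7 in chitosan stomach and 49.3, 46.3 and 49.3 in mock stomach. Its groups overlapped in both treatments.

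**Figure D3:**
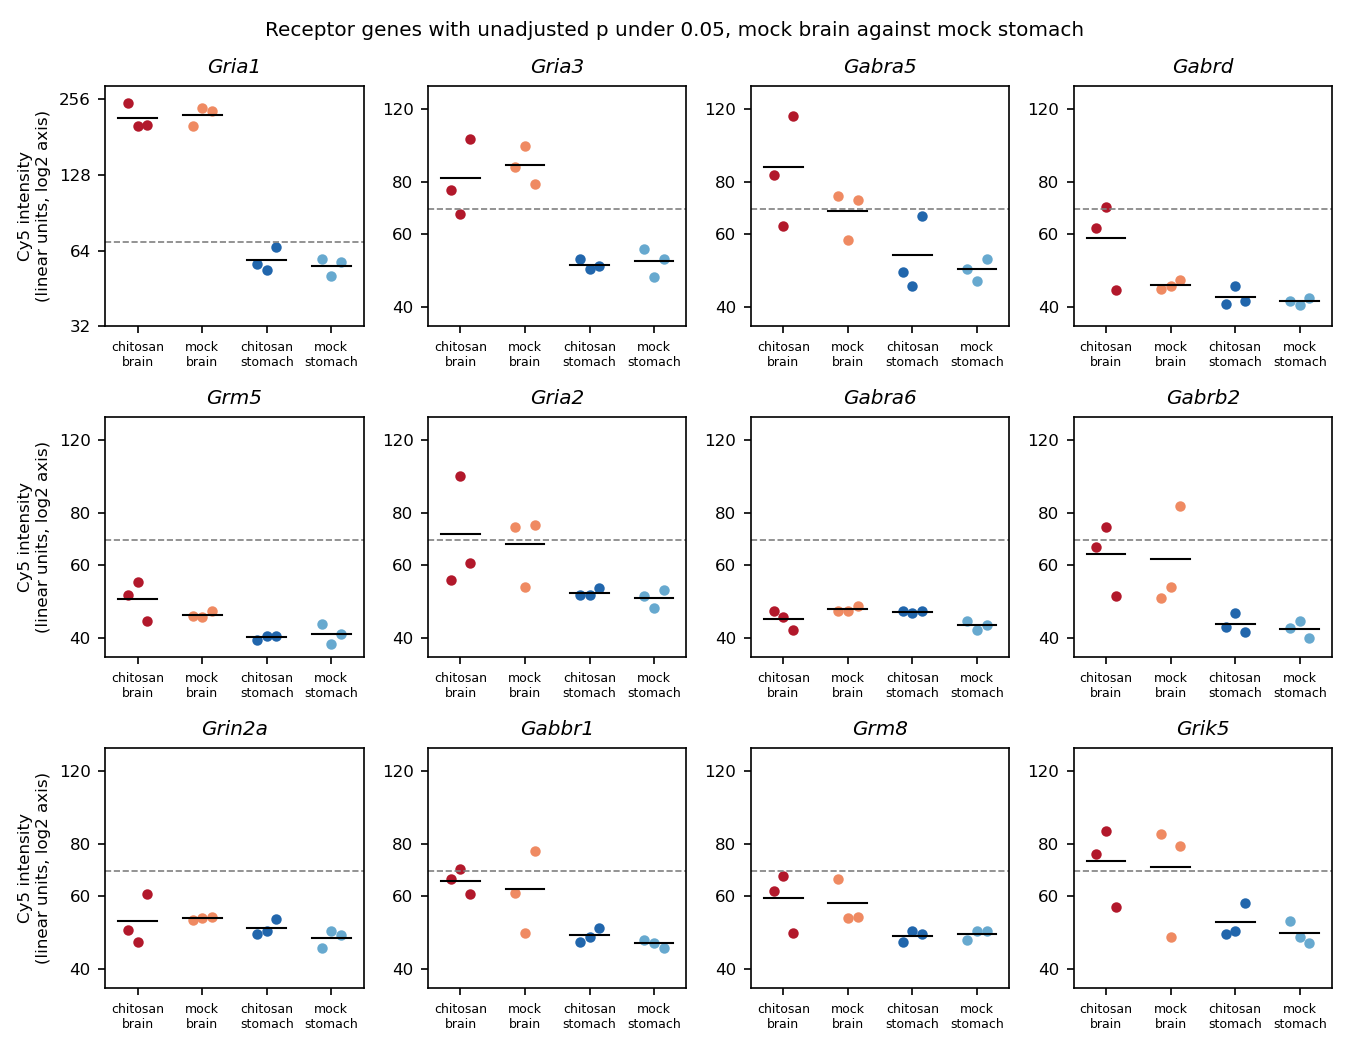
Cy5 intensity (y axis, linear units on a log2 axis, with a wider range for Gria1) of the 12 receptor genes with an unadjusted p under 0.05 for mock brain against mock stomach, by group (x axis). Points are arrays, black lines are means of 3 arrays, and the dashed line is the median background limit of the 12 arrays. Gria1 stands clear of the limit in brain, while Gabra6, Grm5 and Grin2a stay under it on all arrays.

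For Gria1 and Gria3, the probes of a gene did not give like results. They were not alone in this. Between mock brain and mock stomach, the probes of Gabrb2 differed by 0.52, 0.05 and -0.06 and those of Glrb by 0.22 and 0.06. Those of Grm8 differed by 0.24 and 0.08 and those of Grin1 by 0.16 and 0.09. The 2 probes of Glra1 differed by 0.10 and 0.10, but neither was above the background limit on any array. For Gria1, the second probe had 66.4, 74.6 and 50.6 in chitosan brain, 52.4, 47.8 and 57.2 in mock brain, 46.6, 45 and 48.7 in chitosan stomach and 47.1, 49.8 and 47.3 in mock stomach. The third had 64.3, 94.6 and 50.6 in chitosan brain, 48.6, 38.5 and 44 in mock brain, 38.7, 38.7 and 38.1 in chitosan stomach and 37.6, 39.6 and 38.3 in mock stomach. Neither was above the limit on any mock brain array, and neither was called between organs. In chitosan mice both lay above stomach without overlap, by 0.43 (adjusted p = 0.279) for the second probe and 0.81 (adjusted p = 0.131) for the third. In mock mice they differed by 0.12 (adjusted p = 0.452) and 0.18 (adjusted p = 0.311). For Gria3 the second probe differed by 0.27 (adjusted p = 0.211) and the third by -0.01 (adjusted p = 0.959) in mock mice. Averaging the probes of each gene reduced the mock difference of Gria1 to 0.76 and that of Gria3 to 0.34, and both were still called (adjusted p = 6.5e-04 and 0.0182).

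**Figure D4:**
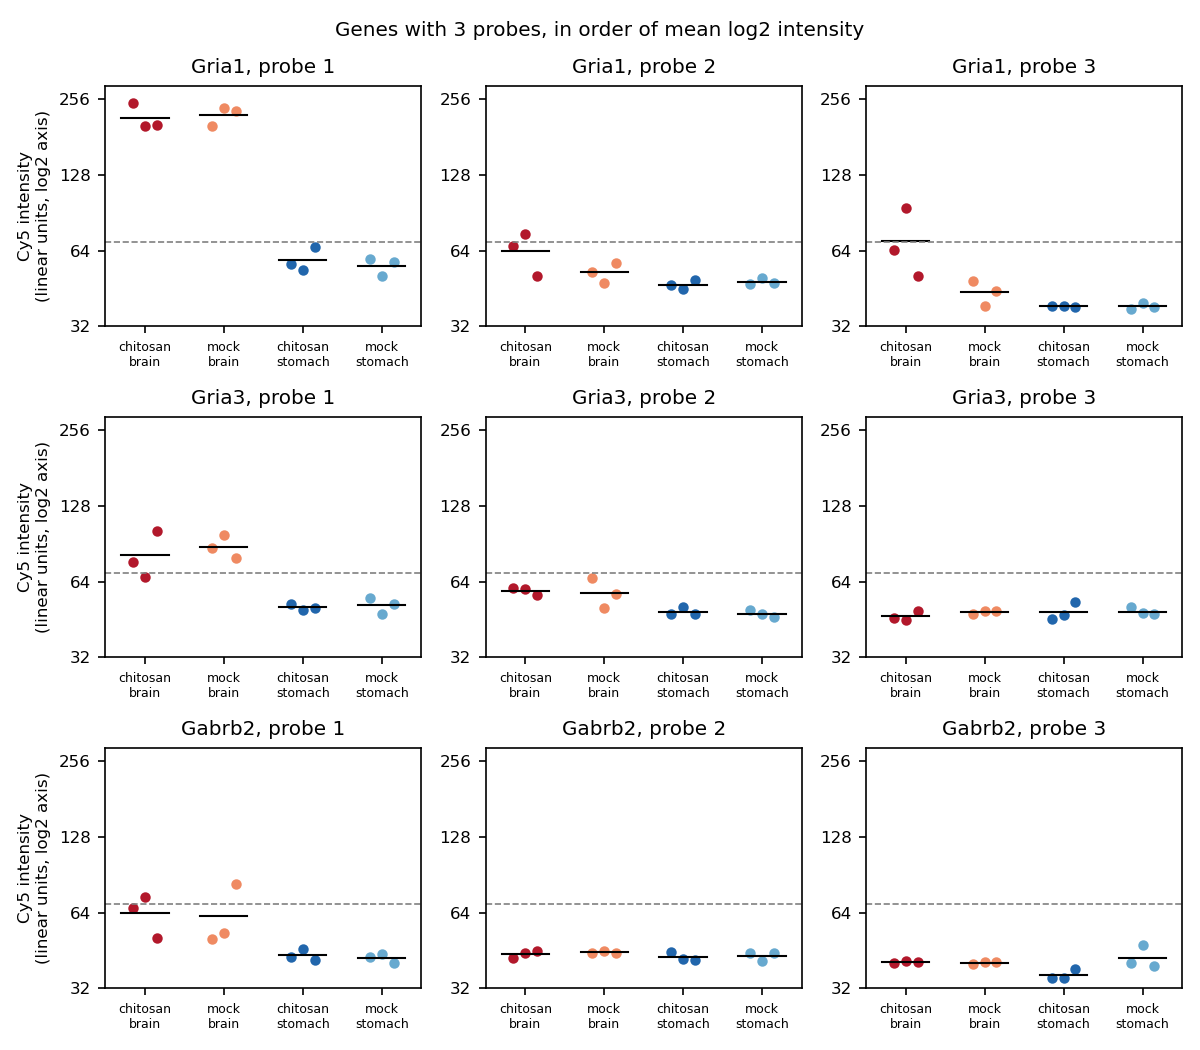
Cy5 intensity (y axis, linear units on a log2 axis) of each probe of the 3 genes with 3 probes, by group (x axis), with probes in order of mean log2 intensity. Points are arrays, black lines are means and the dashed line is the median background limit. The first probe of Gria1 reads 200 to 246 in brain, and its other probes read 38.5 to 94.6 there.

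Among kainate receptors, which act on both sides of the synapse, Grik5 (the high-affinity GluK5 subunit) had 75.7, 85.9 and 56.5 in chitosan brain, against 48.6, 49.3 and 57.7 in chitosan stomach. It had 84.3, 47.8 and 79 in mock brain, against 52.2, 47.9 and 46.3 in mock stomach. The groups overlapped in both treatments, through chitosan brain array 3 and mock brain array 2, and neither difference passed (0.47, SE 0.17, adjusted p = 0.335 in chitosan mice; 0.49, SE 0.20, adjusted p = 0.278 in mock mice). The other 4 kainate subunits, Grik1 to Grik4, read 39.9 to 60.8 on all arrays.

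No NMDA receptor gene was above the background limit on any array. NMDA receptors admit calcium when glutamate binds a depolarized cell, and Grin1 codes for the subunit that all of them need. The 7 genes, Grin1, Grin2a to Grin2d, Grin3a and Grin3b, ranged from 38.1 to 60.7 over the 12 arrays. Grin2a, a glutamate-binding subunit of adult forebrain, had 52.4, 53.3 and 53.5 in mock brain and 45, 49.4 and 48.3 in mock stomach, without overlap (0.16, SE 0.06, adjusted p = 0.196). In chitosan mice it had 49.6, 46.4 and 60.7 in brain and 48.6, 49.3 and 52.8 in stomach, and overlapped.

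No metabotropic glutamate receptor gene was above the limit either: the 6 genes ranged from 36.7 to 67.2. Grm5, a receptor coupled to phospholipase C and abundant in striatum and hippocampus, had 50.8, 54.5 and 44 in chitosan brain, against 39.7, 40.6 and 40.4 in chitosan stomach, and 45.3, 45 and 46.6 in mock brain, against 43.2, 38.7 and 41 in mock stomach. The organs did not overlap in either treatment (0.30, SE 0.08, adjusted p = 0.139 in chitosan mice; 0.16, SE 0.05, adjusted p = 0.149 in mock mice). Grm8, a presynaptic receptor that lowers transmitter release, had 61.5, 67.2 and 48.9 in chitosan brain and 46.6, 49.3 and 48.7 in chitosan stomach, and 66, 53.3 and 53.5 in mock brain and 47.1, 49.4 and 49.3 in mock stomach. Its difference was 0.28 (adjusted p = 0.438) in chitosan mice and 0.24 (adjusted p = 0.245) in mock mice. The second Grm8 probe differed by 0.06 (adjusted p = 0.761) in chitosan mice and 0.08 (adjusted p = 0.483) in mock mice. At that probe the organs overlapped in both treatments.

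On the inhibitory side, Gabbr1 (probe mMC008452) codes for the subunit of the GABA-B receptor that binds GABA. Its intensities were 65.8, 69.6 and 60.7 in chitosan brain, against 46.6, 47.9 and 50.3 in chitosan stomach. They were 60.8, 48.8 and 77 in mock brain, against 47.1, 46.3 and 45.1 in mock stomach. Within each treatment, every brain array lay above every stomach array, and the mock brain arrays were spread further apart than the chitosan brain arrays. The difference was 0.44 in chitosan mice (SE 0.08, adjusted p = 0.0411) and 0.41 in mock mice (SE 0.15, adjusted p = 0.215). The chitosan call was made in 8 of 17 settings, and with the replicate number as a block it was lost (adjusted p = 0.0767), while Gabra5 passed instead (adjusted p = 0.0455).

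Gabra5, the alpha5 subunit of GABA-A receptors outside synapses in the hippocampus, had 83.3, 62.8 and 115 in chitosan brain, against 48.6, 45 and 66.3 in chitosan stomach. It had 74.2, 58.2 and 72.4 in mock brain, against 49.3, 46.3 and 52.3 in mock stomach. The organs overlapped in chitosan mice, where stomach array 3 exceeded brain array 2, and did not in mock mice. The difference was 0.69 (SE 0.25, adjusted p = 0.35) in chitosan mice and 0.46 (SE 0.11, adjusted p = 0.0531) in mock mice.

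Gabrb2, a beta subunit of the most common GABA-A receptors, had 66.4, 74 and 50.6 in chitosan brain, against 42.7, 46 and 41.5 in chitosan stomach. It had 50.1, 53.3 and 83.1 in mock brain, against 42.4, 43.9 and 40.2 in mock stomach. Brain was above stomach without overlap in both treatments, but neither difference passed (0.54, SE 0.14, adjusted p = 0.141 in chitosan mice; 0.52, SE 0.18, adjusted p = 0.179 in mock mice). Its other 2 probes differed by 0.05 and -0.06 in mock mice. Gabra6, the alpha6 subunit of cerebellar granule cells, stayed at 41.8 to 47.8 on all arrays.

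The mock brain reading of Gabrg1 depended on a single array. This gene, the gamma1 subunit of GABA-A receptors, had 47.8, 52.5 and 44 in chitosan brain and 305, 42.9 and 41.8 in mock brain, against 42.7, 42.8 and 41.5 in chitosan stomach and 44.1, 42.7 and 43 in mock stomach. Mock brain array 1 stood apart at 305, and the other mock brain arrays lay within the range of the stomach arrays. The brain minus stomach difference was 0.92 in mock mice (SE 0.70, adjusted p = 0.53). In chitosan mice the brain arrays of Gabrg1 were above the stomach arrays without overlap, and the difference of 0.18 (SE 0.07) did not pass (adjusted p = 0.369).

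Gabrd, the delta subunit of GABA-A receptors outside synapses, had 62.1, 69.8 and 44 in chitosan brain, against 40.8, 45 and 41.5 in chitosan stomach. It had 44.3, 45 and 46.6 in mock brain, against 41.5, 40.4 and 42 in mock stomach. The organs overlapped in chitosan mice and did not in mock mice (0.44, SE 0.16, adjusted p = 0.352 in chitosan mice; 0.13, SE 0.04, adjusted p = 0.132 in mock mice). The 5 glycine receptor genes read 36.3 to 66.3, and none of them exceeded the background limit on any array.

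Of the receptor genes measured, 7 pairs lie side by side in GRCm38.p6, and some pairs differed between mock brain and mock stomach by unlike amounts and others by like amounts. The log2 differences were 0.13 for Gabra6 and 0.52 for its neighbor Gabrb2, 0.41 for Gria2 and 0.22 for Glrb, 0.08 for Gabrg3 and 0.46 for Gabra5, and 0.92 for Gabrg1 and 0.00 for Gabra2. They were closer for Gabra4 (0.17) and Gabrb1 (0.10), Gabra3 (0.13) and Gabrq (0.05), and Gabrr2 (0.04) and Gabrr1 (0.02). Each value rests on 1 probe. The SE was 0.14 for Gria2 and 0.13 for Glrb, so these values are not clearly apart. No gene of the closer pairs was above the background limit on a mock array. The other Gabrb2 probes differed by 0.05 and -0.06 and the second Glrb probe by 0.06. The 0.92 of Gabrg1 (SE 0.70) comes from 1 mock brain array. No test of sharing was run.

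Genes for the proteins around the receptors were listed as well. Of 94 such genes for auxiliary subunits, postsynaptic scaffolds, transmitter synthesis and transporters, 79 were measured, and 15 (19%) were called higher in mock brain than in mock stomach and 0 lower, against 4.06% and 5.05% of all named genes. In chitosan mice 12 (15.2%) were called higher and 0 lower, against 2.09% and 1.43%. Their median log2 difference was 0.12 in mock mice and 0.11 in chitosan mice. Of the scaffold genes of excitatory synapses, 6 of 22 were called higher in chitosan mice and 5 in mock mice, while of those of inhibitory synapses 0 of 14 were called in chitosan mice and 2 in mock mice. Dlg4, which codes for the scaffold PSD-95, had 284, 242 and 386 in chitosan brain and 52.2, 47 and 52.8 in chitosan stomach, and 251, 259 and 268 in mock brain and 50.6, 47.9 and 81.5 in mock stomach (2.56, adjusted p = 0.0096, in chitosan mice and 2.15, adjusted p = 0.0019, in mock mice). Camk2a, the kinase that phosphorylates AMPA receptors during potentiation, differed by 2.22 (adjusted p = 0.0105) in chitosan mice and 2.33 (adjusted p = 4.3e-04) in mock mice.

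Of the genes for transmitter synthesis and breakdown, 3 of 12 were called higher in brain in either treatment, and of the transporters, 2 of 18 in chitosan mice and 3 of 18 in mock mice. Glul, the glutamine synthetase of astrocytes, differed by 3.95 (adjusted p = 0.0252) in chitosan mice and 2.60 (adjusted p = 0.0028) in mock mice. Abat, which breaks down GABA, differed by 2.38 (adjusted p = 0.0171) in chitosan mice and 2.05 (adjusted p = 5.2e-04) in mock mice. Slc6a11, a GABA transporter, differed by 2.27 (adjusted p = 0.0088) in chitosan mice and 1.64 (adjusted p = 3.2e-04) in mock mice.

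Of the auxiliary subunits of AMPA and kainate receptors, 1 of 13 was called higher in brain in chitosan mice and 2 in mock mice. Cnih2, an auxiliary subunit of AMPA receptors, had 233, 209 and 255 in chitosan brain and 128, 166 and 130 in mock brain, and differed from stomach by 1.82 (adjusted p = 0.0489) in chitosan mice and 1.30 (adjusted p = 0.0031) in mock mice. Gabarapl1, known as a relative of the protein that carries GABA-A receptors, differed by 1.27 (adjusted p = 0.585) in chitosan mice and 2.04 (adjusted p = 0.0021) in mock mice.

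Chitosan was then compared with mock within the brain. No receptor gene passed, with 0 of 45 called and 0% of all named genes called. At an unadjusted p under 0.05, 0 receptor genes were higher and 1 was lower, against 4.13% and 2.87% of named genes. The chitosan arrays were above all mock arrays for 0 receptor genes and below them for 2, Grin1 and Grm3, against 5.66% and 6.45%. Of the 45 genes, 18 had a log2 difference above 0 (47.4% of named genes did), and the median was -0.01, against -0.01 for all named genes. In this design, an exact permutation test of 3 against 3 arrays cannot give a p below 0.1.

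The largest receptor differences in the brain were as follows. Gabrd, a subunit of some of the GABA-A receptors that carry a tonic current, had 62.1, 69.8 and 44 in chitosan brain. It had 44.3, 45 and 46.6 in mock brain. Chitosan arrays 1 and 2 were above all mock arrays and array 3 was below them, and the difference of 0.35 (SE 0.16) did not pass (adjusted p = 0.765). Without chitosan brain array 3 it was 0.54 and passed (adjusted p = 0.0394), and Gabrd was then the only receptor gene called. Over all probes, 0 were called with all 6 brain arrays and 0 to 221 when single arrays were left out. Summed intensities of brain region markers also varied between the groups. Striatal markers (12 of 16 measured) summed to 926 to 1153 in chitosan brain and 893 to 903 in mock brain, cerebellar markers (12 of 13 measured) to 925 to 1365 in chitosan brain and 1321 to 1596 in mock brain, and markers of cortex and hippocampus (13 of 15 measured) to 1297 to 1544 in chitosan brain and 1926 to 2555 in mock brain. A sum is weighted toward the brightest genes. With chitosan, 10 striatal markers were higher and 2 lower, and 6 cerebellar markers were higher and 6 lower (47.4% of named genes were higher). Of the markers of cortex and hippocampus, 6 were higher and 7 lower, and no marker of these lists was called. The part of these markers in the receptor values was not tested.

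Gabra5, whose values are given above, differed by 0.32 (SE 0.23, adjusted p = 0.773) between chitosan and mock brain, with its highest value of 115 on chitosan array 3, where Gabrd was lowest. Gabra3, an alpha subunit of GABA-A receptors, had 56.8, 77.9 and 53 in chitosan brain and 50.1, 53.3 and 57.2 in mock brain (0.21, SE 0.15, adjusted p = 0.773). The groups overlapped. Gabrg1 differed by -0.77 (SE 0.70, adjusted p = 0.804), which rests on the mock array at 305.

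Grin1 had 46.6, 47.3 and 47.8 in chitosan brain and 50.1, 58.2 and 53.5 in mock brain. All chitosan arrays were under all mock arrays, at readings below the background limit, and the difference of -0.19 (SE 0.07) did not pass (adjusted p = 0.765). The second Grin1 probe differed by -0.0025 (adjusted p = 0.995). Gria1, which was above the limit on every brain array, differed by -0.04 (SE 0.37, adjusted p = 0.987) at its brightest probe, by 0.27 (adjusted p = 0.769) at its second and by 0.63 (SE 0.21, adjusted p = 0.765) at its dimmest. The chitosan arrays of the dimmest probe, at 64.3, 94.6 and 50.6, were all above the mock arrays at 48.6, 38.5 and 44, so the probes of this gene differed in direction. Gria3 differed by -0.12 (SE 0.20, adjusted p = 0.893). Gria4 differed by -0.19, with its groups overlapping.

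Glrb, the beta subunit that anchors glycine receptors at synapses, had 44.9, 49.3 and 46.8 in chitosan brain and 66, 47.8 and 48.9 in mock brain (-0.19, SE 0.12, adjusted p = 0.773). Its mock value of 66 was shared by 511 probes of mock brain array 1, and the groups overlapped. Grik2, the kainate subunit GluK2, had 49.6, 44.1 and 46.8 in chitosan brain and 60.8, 50.4 and 48.9 in mock brain (-0.18, SE 0.09, adjusted p = 0.769), where chitosan array 1 overlapped mock array 3. Gabra4 had 46.6, 48.7 and 56.5 in chitosan brain and 52.4, 66.5 and 50.6 in mock brain (-0.15, SE 0.12, adjusted p = 0.775), and overlapped. Grid1, a delta glutamate receptor, had 63.3, 52.8 and 60.7 in chitosan brain and 60.8, 47.8 and 53.5 in mock brain (0.13, SE 0.11, adjusted p = 0.795). Gabra2, an alpha subunit of GABA-A receptors, had 46.6, 45.1 and 43 in chitosan brain and 42, 39.5 and 44 in mock brain (0.10, SE 0.05, adjusted p = 0.769). In both, chitosan and mock arrays overlapped. Grm5, whose values are given above, differed by 0.12 (SE 0.08, adjusted p = 0.773).

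The other gene without overlap in the brain had a small difference. Grm3, a metabotropic receptor of neurons and astrocytes, had 40.4, 40.4 and 39.7 in chitosan brain and 41, 42.9 and 40.8 in mock brain, and did not overlap, although the nearest values of the groups were 40.4 and 40.8 (-0.05, SE 0.03, adjusted p = 0.773).

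**Figure D5:**
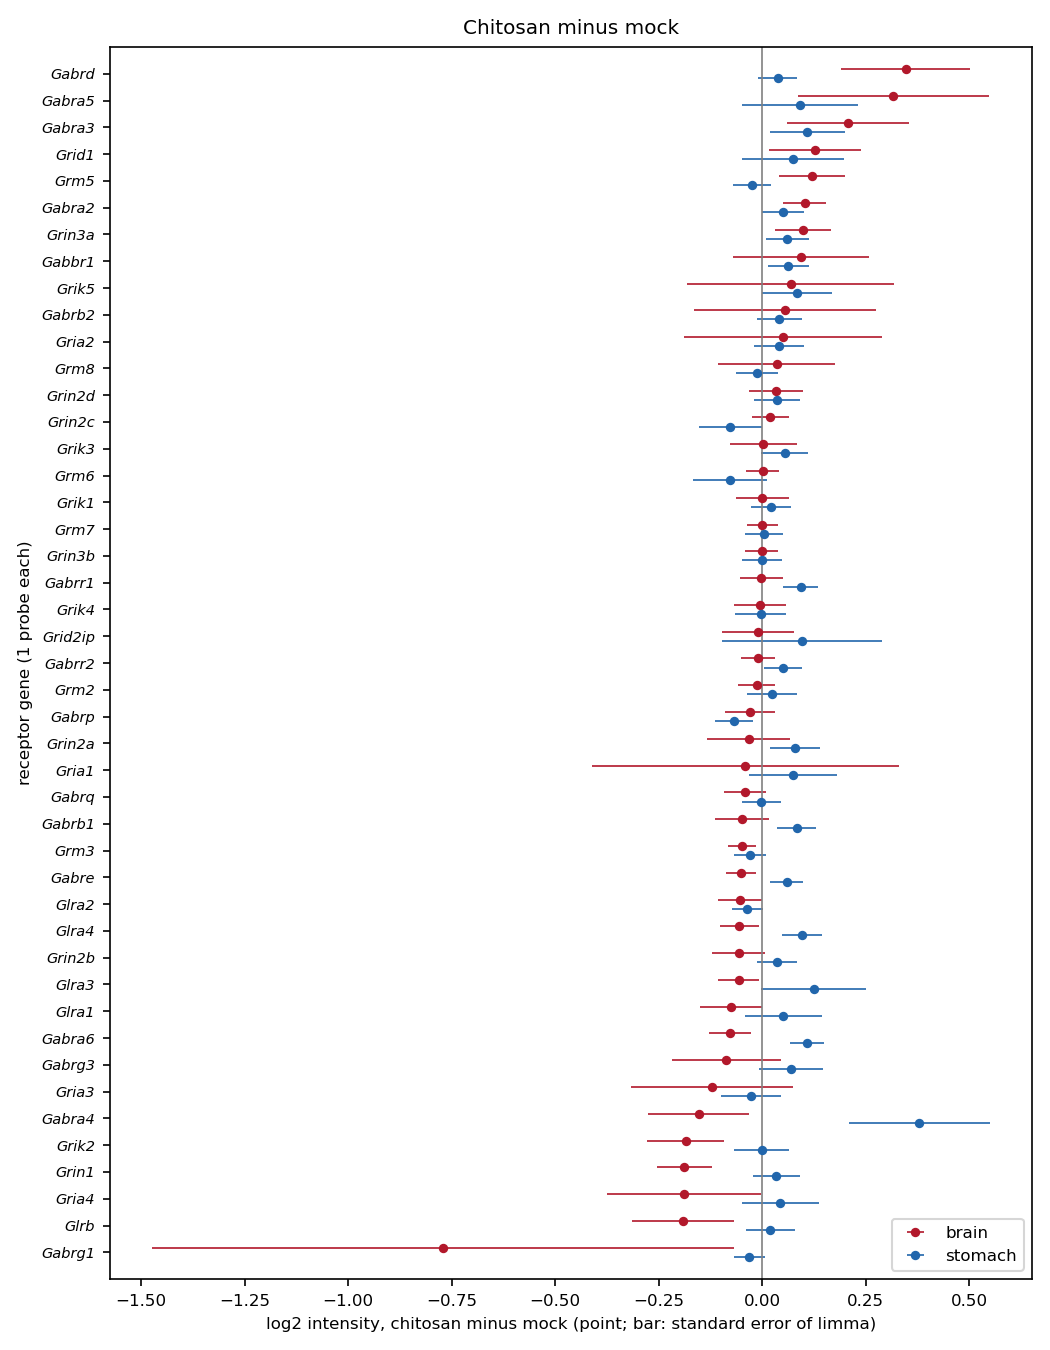
Log2 difference of chitosan minus mock (x axis) for the 45 receptor genes (y axis), in the brain (red) and the stomach (blue), ordered by the value in the brain. Points are limma estimates from 3 against 3 arrays and bars are standard errors. Apart from Gabrg1 at -0.77 in the brain, all values lie between -0.19 and 0.38.

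In the stomach, no receptor gene passed and none was above the background limit on more than 1 array of a group. Again 0 of 45 were called, and 0% of all named genes. At an unadjusted p under 0.05, 1 was higher, Gabra6, and 0 were lower (2.1% and 3.91% of named genes). The chitosan arrays lay above all mock arrays for 5 genes, Gabra4, Gabra6, Glra4, Gabrr1 and Gabrb1, and below them for 0, against 6.79% and 6.07%. The median difference was 0.04, against 0.01 over all named genes, and 33 of 45 genes were above 0 (55.8% of named genes).

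Gabra4, an alpha subunit that pairs with delta in tonic receptors, had 52.2, 60.5 and 86.1 in chitosan stomach and 49.3, 49.4 and 50.6 in mock stomach. The groups did not overlap, and the difference of 0.38 (SE 0.17) did not pass (adjusted p = 0.853). Its highest value is on the array with the fewest steps: 86.1 is shared there by 359 probes, Grid2ip among them, and the nearest lower and higher values on that array are 76.1 and 94.8. Grid2ip had 54.3, 57 and 86.1 in chitosan stomach and 60.3, 52.4 and 69 in mock stomach, and overlapped (0.10, adjusted p = 0.925). Gabra6 had 46.6, 46 and 46.4 in chitosan stomach and 44.1, 41.8 and 43 in mock stomach (0.11, SE 0.04, adjusted p = 0.853). Glra3, a glycine receptor alpha subunit, had 47.6, 47.9 and 66.3 in chitosan stomach and 49.3, 47.9 and 49.3 in mock stomach, with the highest value again on array 3 (0.12, SE 0.13, adjusted p = 0.866).

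Glra4 had 48.6, 47 and 47.5 in chitosan stomach and 45, 42.7 and 46.3 in mock stomach (0.10, SE 0.05, adjusted p = 0.853), without overlap. Gabra3 had 49.8, 60.5 and 48.7 in chitosan stomach and 48.2, 50.3 and 48.3 in mock stomach (0.11, SE 0.09, adjusted p = 0.855), and overlapped.

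The lowest stomach differences were smaller still. Grm6, the metabotropic receptor of retinal bipolar cells, had 38.7, 39.6 and 39.3 in chitosan stomach and 36.7, 47.9 and 40.2 in mock stomach (-0.08), and Grin2c, an NMDA subunit of cerebellum, had 44.8, 42.8 and 44 in chitosan stomach and 44.1, 52.2 and 43 in mock stomach (-0.08). In both, mock array 2 was the highest. Gabrp, the pi subunit known from peripheral tissues, had 43.8, 45 and 46.4 in chitosan stomach and 47.1, 46.3 and 48.3 in mock stomach (-0.07). Glra2 had 37, 36.5 and 37.1 in chitosan stomach and 37.6, 39.6 and 36.3 in mock stomach (-0.04), and Grm3 had 38.7, 40.6 and 40.4 in chitosan stomach and 40.5, 39.6 and 42 in mock stomach (-0.03). Gabrg1, whose values are given above, differed by -0.03. The groups overlapped in all 6, and none passed.

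Of the 79 measured genes around the receptors, chitosan called 0 in either direction in either organ. Among them only Glul was past 2-fold: it had 104, 81.5 and 40.4 in chitosan stomach and 184, 264 and 186 in mock stomach, without overlap, and the difference of -1.57 did not pass (adjusted p = 0.651).

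An interaction term fitted to the 12 arrays compared the chitosan effect in the brain with that in the stomach. None of the 45 receptor genes passed, against 0.36% of named genes, and the smallest adjusted p was 0.377, for Gabra6. At an unadjusted p under 0.05, 0 receptor genes were higher and 4 lower in the brain than in the stomach effect, Gabra6, Grin1, Glra4 and Gabra4, against 5.59% and 4.53% of named genes. Gabra4 had the largest of these 4 differences, -0.53 (SE 0.23, adjusted p = 0.507), and chitosan arrays differed from mock arrays by -0.15 (brain) and 0.38 (stomach). Of the genes around the receptors, 1 passed: Dlgap3, a scaffold of excitatory synapses prominent in striatum, had 80.7, 69.3 and 87.6 in chitosan brain, 50.1, 53.3 and 53.5 in mock brain, 41.8, 43.9 and 47.5 in chitosan stomach and 52.2, 60.4 and 49.3 in mock stomach (0.87, adjusted p = 0.0341).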

How the data were processed

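Single-color arrays (Mouse Whole Genome OneArray) were made from 12 RNA samples, 3 in each of 4 groups. The authors extracted RNA, accepted an RNA integrity number over 7, labeled amplified RNA with Cy5, read spots with GenePix, corrected them for the surrounding background, left out control probes and negative signal-to-noise ratios, and used limma for normalization (method not given). The deposited values are linear intensities of 29922 probes. The provided probe annotation names 21020 probes and leaves 8902 unnamed.

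The log2 of each intensity was used as it stood. With limma 3.58.1 in R 4.3.3, lmFit and eBayes with an intensity trend were run on the 6 arrays of each comparison, and on all 12 for the interaction. Benjamini-Hochberg adjustment covered all 29922 probes, and 0.05 was the threshold. With few arrays, the standard errors lean on the spread of probes of like intensity. A bound is for 1 probe. It sets the mean log2 intensity of the brain against the higher of the background limit (2 times the lowest intensity) and the probe's own value in stomach. Arrays give no counts, so the 3 arrays of a group limit the precision. Correlations within groups were 0.796 to 0.951, and no 2 arrays were identical.

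Array values are given for genes called, the 6 largest rises and falls in each organ, genes with no overlap between chitosan and mock at an unadjusted p under 0.05, genes above the limit in stomach and genes whose probes disagree. Related genes are the largest mock organ differences and those past 2-fold with chitosan. Gria2, Grik5, Grin2a, Grm8, Glra1, Grm3 in the brain and Dlgap3, which the rule does not name, were picked with their values known. The genes, lists and tests were chosen with earlier results of these data known. No set test was run.

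Replicate numbers were checked on 2563 bright probes (mean above 80). For brain and stomach of chitosan mice, deviations of same-numbered arrays correlated at 0.123 to 0.601 and those of different numbers at -0.637 to 0.567. These ranges overlap, so pairing was not shown. In mock mice the ranges were -0.303 to -0.0397 (same number) and -0.133 to 0.27 (different). They were -0.371 to -0.000799 and -0.0797 to 0.352 for chitosan and mock brain, and -0.41 to 0.578 and -0.75 to 0.686 for chitosan and mock stomach. Alternatives were all 12 arrays in 1 model, the methods' t-test, no intensity trend, median centering, quantile normalization, a floor at the 20th percentile, subtraction of the lowest intensity with 16 added, only probes above the median intensity, the replicate block, averaged probes of each gene, and each array left out.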

Additional observations from a re-analysis of the deposited data

How the results depend on the processing

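The count of receptor genes called in the brain after chitosan was 0 and ranged from 0 to 1 when each array was left out. In the stomach it was 0 throughout, and in the interaction it ranged from 0 to 1, with Gabrd called without chitosan brain array 3 (0.50, adjusted p = 0.028). Between organs in mock mice it was 2, ranged from 2 to 6 with single arrays left out (6 without mock brain array 2) was 1 by the methods' t-test, which lost Gria3, and was 3, with Gabra5 added, with the lowest intensity subtracted, with only probes above the median or with averaged probes. In chitosan mice it was 2, ranged from 0 to 8 (8 without chitosan brain array 3, and 0 without chitosan brain array 1, chitosan stomach array 1 or chitosan stomach array 2), and was 1 by the methods' t-test, with the floor at the 20th percentile and with only probes above the median. It was 3 (Gria1, Gria3 and Grm5) with all 12 arrays in 1 model. The cause was not tested.

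With the replicate block, 0 receptor genes were called after chitosan in either organ and in the interaction, and 2 between organs in either treatment, and no call changed other than those of Gabbr1 and Gabra5. Over all probes, 0 were called in the brain (0 to 221 with single arrays left out) and 0 in the stomach (0 to 3, and 95 with all 12 arrays in 1 model), 1908 between organs in mock mice (1247 with the block), 712 in chitosan mice (0 to 1128) and 75 in the interaction (8 to 212).

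When the probes of each gene were averaged, the chitosan difference of Gria1 in the brain turned to 0.29, and its interaction to 0.28. Leaving out single arrays moved the brain differences of Gria1 from -0.14 to 0.0096 and of Gria3 from -0.29 to 0.010, the stomach differences of Gabrd from -0.0062 to 0.065, of Gria1 from -0.013 to 0.14 and of Gria3 from -0.089 to 0.023, and the interaction of Gria3 from -0.26 to 0.038. None of these was called. Most receptor genes lie under the background limit, where differences can be compressed. Its part in these results was not tested.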
